A study of Bos taurus with 33 samples.

Results

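Pregnant and cyclic endometrium were compared on day 15 in 6 of the series' 33 arrays, chosen by title: 3 from pregnant and 3 from cyclic heifers, 1 animal per array. Each array gave RNA levels for bovine transcripts as log2 expression values, so a difference of 1 is a doubling. All were Bavarian Simmental heifers whose cycles had been synchronised with cloprostenol, a prostaglandin analogue. The pregnant heifers had been inseminated with cryo-conserved sperm from a single bull. The cyclic controls were sham-inseminated with the sperm-free supernatant of centrifuged sperm, so both groups received seminal fluid components and the same synchronisation. Conceptuses were removed after the uterus was opened at slaughter. Intercaruncular endometrium, the glandular tissue between the attachment sites, was then taken from the medial part of the horn next to the corpus luteum. For reference the text also uses 5 and 5 heifers of day 12 (distal part), 4 and 4 of day 18 (caudal part), and day 16 biopsies from 3 heifers whose uterus held a lipid extrudate with human interferon alpha (IFNA) and 3 with the plain extrudate (placebo). A further 3 biopsied heifers were given PBS; they entered the fits with the biopsies and served as an alternative control. Day and sampled part of the horn cannot be told apart.

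In cattle the elongating conceptus lies free in the uterine lumen before it attaches. Its trophoblast secretes interferon tau, a type I interferon that acts on the endometrium and holds back the prostaglandin pulses that would end the corpus luteum. The uterine epithelium and glands in turn release histotroph, the mixture of proteins, sugars, amino acids and lipids that feeds the conceptus. Genes answering to interferon are known to dominate the endometrial response at this stage, so the weight here is on the other functions.

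The tissue carried markers of both glandular epithelium and stroma at high levels. EPCAM, an epithelial adhesion protein, averaged 12.2 in both groups, and the stromal genes COL3A1 and DCN averaged 13.2 and 13.5 in cyclic and 13.1 and 13.5 in pregnant heifers. The 6 arrays had medians of 6.48 to 6.51, and control signals for RNA quality overlapped between the groups: the 3′ probe set of actin exceeded the 5′ one by 2.22 to 2.67 in cyclic and 2.31 to 2.55 in pregnant heifers. The first principal component held 47.9% of the variance and placed the cyclic arrays at -28.6 to -17.0 and the pregnant arrays at 18.7 to 29.6. In bulk tissue fewer cells of a type and less RNA per cell cannot be told apart.

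Pregnancy went with 1218 changed probe sets on day 15, 5.07% of 24016 tested, of which 661 were higher (2.75%) and 557 lower (2.32%). At the level of named genes, 581 of 9155 passed the threshold (6.35%), with 372 higher (4.06%) and 209 lower (2.28%) in pregnant heifers. A further 484 of the changed probe sets have no single gene symbol and are counted but not named. The test was limma's moderated linear model with Benjamini-Hochberg adjustment over all probe sets and a threshold of 0.05 on the adjusted p. All values with ± are standard errors from that fit.

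The rises were larger than the falls. The median size of a rise was 0.65 log2 and the largest was 5.32, while the median fall was 0.38 and the largest 1.88 in size. A difference of more than 1 log2 was seen for 101 rises and 5 falls, and one of more than 2 log2 for 33 rises and no fall. Arrays of the groups did not overlap for 372 of 372 rises and 203 of 209 falls. Over all genes, 13% had no overlap with pregnant heifers higher and 13.8% with pregnant heifers lower.

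How many genes passed depended on single animals. Without pregnant heifer 1, 225 genes rose and 63 fell; without cyclic heifer 2 the counts were 224 and 84. Without pregnant heifer 3 they were 260 and 84, and without cyclic heifer 3 they were 267 and 95. When only the 6 day 15 arrays were fitted, so that no spread was borrowed from the other days, 195 genes rose and 33 fell.

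Interferon response genes made up the top of the list. Of 61 measured genes on the interferon list, 48 rose and none fell, with a median difference of 1.89 against -0.01 over all genes. MX2, an antiviral GTPase, read 6.05, 5.05 and 4.99 in cyclic and 10.92, 10.65 and 10.48 in pregnant heifers, a rise of 5.32 ± 0.31 (adjusted p = 9.66e-11). The groups were far apart. ISG15 rose by 5.24 ± 0.38 and RSAD2 by 4.84 ± 0.33. The remaining 324 rises lie outside that list. Their median was 0.57, and 59 of them exceeded 1 log2.

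The rises outside the list are followed here for the 16 largest with a gene name and no overlap between the groups, which leaves out genes with placeholder symbols such as LOC100298356 (4.45 on day 15 and 4.15 in the biopsies). Of these 16, 8 also had a difference above 1 log2 between IFNA and placebo biopsies, and CCL8, C4A, PPA1 and TIMD4 passed the threshold there. CCL8, a chemokine that draws monocytes, read 6.25, 5.90 and 5.86 in cyclic and 8.66, 8.24 and 8.17 in pregnant heifers (2.35 ± 0.21, adjusted p = 1.02e-07), and the difference in the biopsies was 2.03. TIMD4, a receptor for phosphatidylserine on dying cells, rose by 1.61 ± 0.32 on day 15 and differed by 2.73 in the biopsies. Complement C4A, the adaptor TIFA and the pyrophosphatase PPA1 rose by 1.76, 1.63 and 1.65 and differed by 2.24, 1.84 and 1.04 in the biopsies. IFITM5, of a family of interferon-induced membrane proteins, rose by 1.44 ± 0.31 but passed in neither fit without cyclic heifer 2 or pregnant heifer 3 (1.25 to 1.76 with any 1 animal left out). GBP1, an interferon-induced GTPase, rose by 2.09 ± 0.52, and its call ended without cyclic heifer 2 or 3 or pregnant heifer 1 or 2 (1.80 to 2.41).

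The other 8 differed by less than 1 log2 in the biopsies, and none of them passed there. PLET1, a protein of epithelial surfaces counted among uterine secretions, read 4.40, 4.12 and 4.23 in cyclic and 8.07, 8.48 and 6.51 in pregnant heifers. Every pregnant heifer lay above every cyclic one by more than 2 log2, and pregnant heifer 3 was the lowest of its group. The difference was 3.44 ± 0.40 (adjusted p = 5.64e-06), while the biopsies gave 0.53 ± 0.88. The cyclic level is near the mean of the trophoblast markers without PTGS2 (4.00 to 4.15), and no detection calls were used, so the difference may be a lower bound. FABP3, which carries fatty acids inside cells, read 7.82, 6.65 and 7.68 against 10.21, 9.82 and 9.56. The groups stood well apart, with a rise of 2.48 ± 0.45 (adjusted p = 0.00156) and a biopsy difference of -0.64 ± 0.64.

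TRAK2, an adaptor that links mitochondria to motor proteins, was close to the lower end of the scale in cyclic heifers at 3.31, 2.95 and 3.00 and reached 6.20, 5.29 and 5.03 in pregnant ones. It rose by 2.42 ± 0.51 (adjusted p = 0.00682), a call that ended without pregnant heifer 1 (2.07 to 2.66); at so low a cyclic level this difference, too, may be a lower bound. DKK1, a secreted inhibitor of Wnt signalling, read 9.72, 8.21 and 9.51 against 10.99, 11.13 and 10.77, with cyclic heifer 2 the lowest. Its rise of 1.82 ± 0.42 (adjusted p = 0.0129) was 1.35 without that heifer and then no longer passed. BZW2, a regulator of translation initiation, rose by 1.57 ± 0.34 and lost its call without pregnant heifer 3 (1.29 to 1.88).

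CRYM, a binding protein for thyroid hormone, rose by 1.53 ± 0.28 (7.47, 8.07 and 8.01 against 9.51, 9.00 and 9.64). KCNE4, an accessory subunit of potassium channels, read 7.26, 7.25 and 5.92 in cyclic and 8.20, 8.28 and 8.33 in pregnant heifers, a rise of 1.46 ± 0.27. Cyclic heifer 3 was the low one, and without it the rise was 1.01 and still passed. KCNE4 did not pass when only the 6 day 15 arrays were fitted (limma, adjusted p = 0.087). SOAT1, which esterifies cholesterol for storage, rose by 1.45 ± 0.27 (8.64, 8.33 and 8.08 against 9.88, 9.72 and 9.79), and ABHD1, of the alpha/beta hydrolase family, by 1.44 ± 0.21. Biopsy differences were 0.27 for CRYM, 0.40 for KCNE4, -0.33 for SOAT1 and 1.09 for ABHD1, with only ABHD1 above 1.

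**Figure D1:**
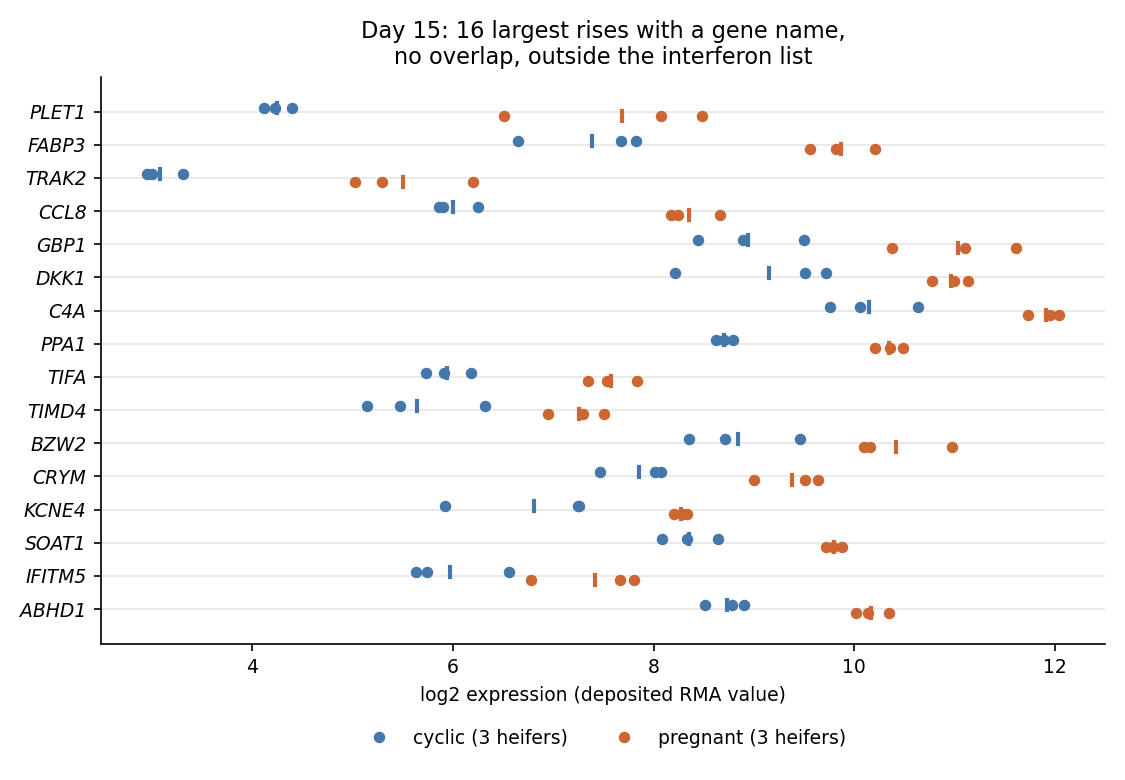
Log2 expression on each of the 6 day 15 arrays (points) with the group means (bars) for the 16 largest rises outside the interferon list, cyclic heifers in blue and pregnant heifers in orange. Genes with placeholder symbols or overlapping groups were left out by the choice; PLET1 is at 4.12 to 4.40 in cyclic and 6.51 to 8.48 in pregnant heifers.

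Across the 533 genes that passed on day 15 and are not on the interferon list, the correlation of the day 15 and biopsy differences was 0.54. It is a description over genes chosen for their day 15 difference, not over independent samples. Of the 372 rises, 83 also passed after IFNA (22.3% of the rises and 82.2% of the 101 genes that rose after IFNA, 1.1% of all genes), and 47 of these are not on the interferon list. The rises outside the list had a median biopsy difference of 0.12. Of the 209 falls, 1 also passed after IFNA, KCNMA1 (0.0218% of all genes were lower after IFNA), and their median there was -0.09. The biopsy difference was also negative for 136 of the 209. Of the 16 falls described below, EDN3, KCNMA1, EFNB3 and DMGDH differed by -1.22, -1.29, -1.03 and -1.01 in the biopsies. BPIFB1, FAP, MTURN and MPTX1 differed by -0.87, -0.86, -0.72 and -0.56. ARSK, SERPINI1 and ALG13 went the other way (0.09, 0.12 and 0.29), and the rest lay at -0.48 to -0.08. RNA from the biopsies differed in its control signals: GAPDH 3′ minus 5′ was 2.48 on average in the 6 IFNA and placebo arrays (SD 1.01) and -0.16 to -0.04 on the day 15 arrays, and actin 3′ minus 5′ was 0.968 against 2.45. The part of this in the contrast between the experiments was not tested.

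**Figure D2:**
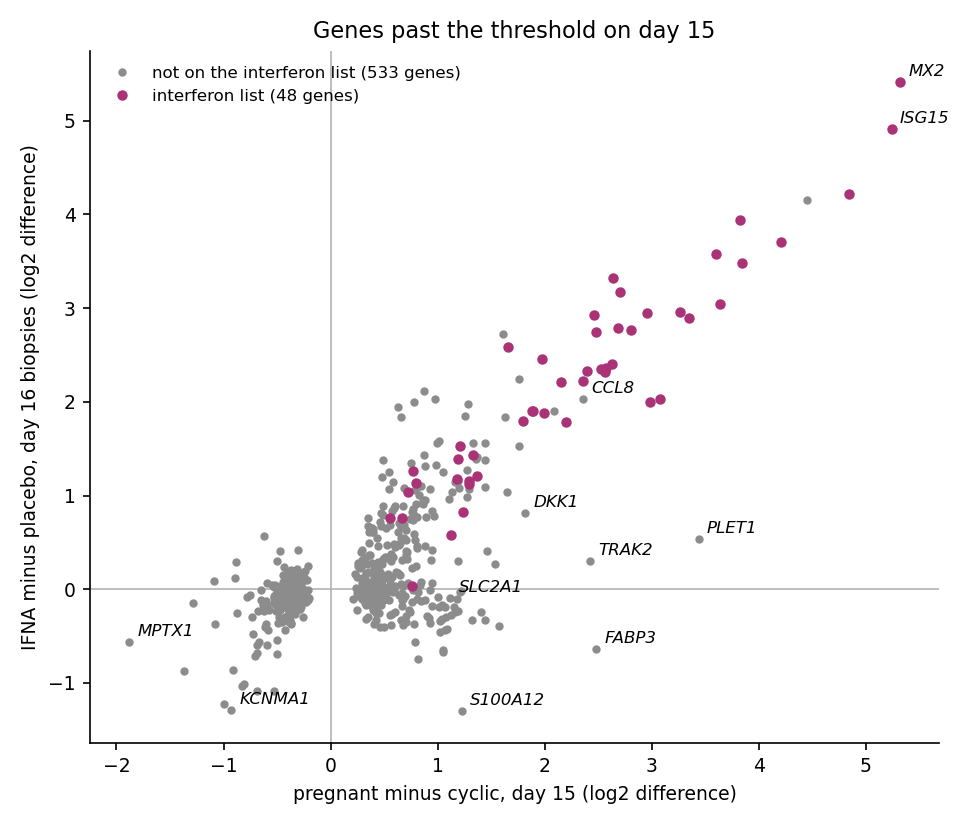
Each of the 581 genes past the threshold on day 15, with the pregnant minus cyclic log2 difference on the horizontal axis and the IFNA minus placebo difference in the day 16 biopsies on the vertical axis; the 48 genes of the interferon list are in purple. Interferon genes run along the diagonal, while PLET1 (3.44 and 0.53), FABP3 (2.48 and -0.64) and SLC2A1 (1.12 and -0.10) lie near or below the zero line of the biopsies.

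The falls were smaller. The 16 described here had to have a gene name and groups that did not overlap, so LOC508666 (-1.08) is not among them. MPTX1, a pentraxin of mucosal surfaces, read 7.82, 9.04 and 9.57 in cyclic and 7.42, 7.09 and 6.27 in pregnant heifers and fell by 1.88 ± 0.47 (adjusted p = 0.0214). BPIFB1, a secreted host defence protein, read 9.92, 10.04 and 10.43 against 8.51, 8.92 and 8.86 and fell by 1.37 ± 0.33. Cyclic heifer 1 came close to the pregnant ones for MPTX1. Both calls ended without cyclic heifer 2 or 3, that of MPTX1 also without pregnant heifer 3 and that of BPIFB1 without pregnant heifer 1 (-2.38 to -1.50 and -1.47 to -1.22).

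SUSD2, a cell surface protein, fell by 1.28 ± 0.34 (7.66, 8.96 and 8.45 against 7.20, 6.95 and 7.07), with a call that only the fit without cyclic heifer 1 kept (-1.63 to -0.98 over the 6 fits). ARSK, a lysosomal sulfatase, fell by 1.09 ± 0.28, from 8.76, 8.94 and 9.12 to 8.06, 8.61 and 6.87. Pregnant heifer 3 was the low one, and without it the difference was -0.60 and did not pass; the call also ended without cyclic heifer 2 or 3 or pregnant heifer 1.

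The call held whichever day 15 heifer was left out for EDN3, ALG13 and NKIRAS1 among these 16 falls. When only the 6 day 15 arrays were fitted, ALG13 and NKIRAS1 still passed and EDN3 did not (limma, adjusted p = 0.061). EDN3, a vasoactive endothelin peptide, read 7.20, 6.39 and 6.87 in cyclic and 6.02, 5.80 and 5.64 in pregnant heifers and fell by 1.00 ± 0.20 (adjusted p = 0.00378). ALG13, part of the enzyme that builds the sugar chains of glycoproteins, was nearly constant in cyclic heifers at 8.14, 8.12 and 8.10 and read 6.94, 7.39 and 7.38 in pregnant ones. It fell by 0.88 ± 0.14 (adjusted p = 0.000363). NKIRAS1, which restrains NF-kappa-B signalling, fell by 0.78 ± 0.16, from 8.40, 8.13 and 8.25 to 7.49, 7.63 and 7.32.

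KCNMA1, the pore of a calcium-activated potassium channel, fell by 0.93 ± 0.22, from 9.51, 9.35 and 9.80 to 8.63, 8.63 and 8.61. Its call ended without cyclic heifer 3, pregnant heifer 1 or pregnant heifer 3 (-1.03 to -0.81), and of its 3 other probe sets 1 passed, also lower. FAP, a protease of fibroblasts, fell by 0.91 ± 0.19 and lost its call without pregnant heifer 3 (-1.06 to -0.68). HSD11B1L, a relative of the cortisol-forming enzyme, fell by 0.87 ± 0.19, and LMCD1, a transcriptional cofactor, by 0.73 ± 0.16; both calls ended without pregnant heifer 1 (-1.07 to -0.72 and -0.85 to -0.60). The protease inhibitor SERPINI1 (-0.89) lost its call without cyclic heifer 1 or 2 or pregnant heifer 1 or 3 (-1.11 to -0.74), and the ephrin EFNB3 (-0.83) without cyclic heifer 1 or 3 or pregnant heifer 1 or 3 (-0.91 to -0.73). DMGDH, an enzyme of choline breakdown (-0.81), passed only without cyclic heifer 1 (-0.998 to -0.678). NDRG4 (-0.72) lost its call without cyclic heifer 3 or pregnant heifer 1 (-0.86 to -0.63), and MTURN (-0.71) without cyclic heifer 2 or 3 or pregnant heifer 2 or 3 (-0.75 to -0.66). Of the 4 other probe sets of MTURN 1 passed, also lower. The mean over its probe sets did not pass (limma, adjusted p = 0.209).

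**Figure D3:**
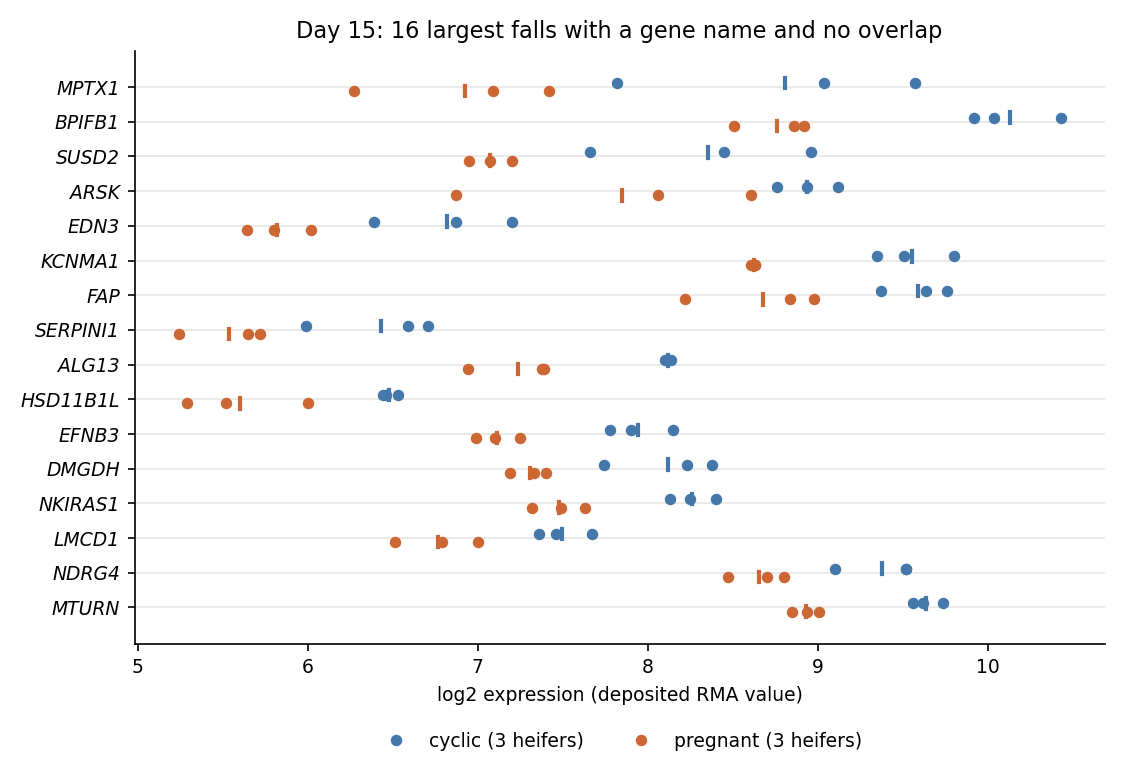
Log2 expression on each of the 6 day 15 arrays (points) with the group means (bars) for the 16 largest falls with a gene name and no overlap between the groups, which the choice required, cyclic heifers in blue and pregnant heifers in orange. KCNMA1 is at 8.61 to 8.63 in all 3 pregnant heifers, and ALG13 at 8.10 to 8.14 in all 3 cyclic ones.

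Among secreted uterine proteins, which form the histotroph, 4 of 37 measured genes rose and none fell (10.8%, against 4.06% of all genes), with a median of 0.14. Beside PLET1 and FABP3 these were LGALS9, a lectin of uterine secretions and a known interferon target (1.30 ± 0.14, on the interferon list), and CTSS, the protease cathepsin S (0.39). CTSS passed in 1 of the 6 fits with 1 heifer left out, that without cyclic heifer 1. Several genes named in the literature for this stage did not pass. SERPINA14, the main secreted serpin of the ruminant uterus, read 7.24, 7.30 and 8.09 against 9.60, 7.86 and 9.24, which overlap (1.36 ± 0.46, adjusted p = 0.0906). It passed without pregnant heifer 2 (adjusted p = 0.0198; 1.01 to 1.88 with any 1 heifer left out). SPP1, an adhesive phosphoprotein, differed by 0.93 (adjusted p = 0.28), IGFBP1, which binds insulin-like growth factors, by 1.52 (0.293), and the cystatin CST6 by 0.70.

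Transport genes rose one by one rather than as lists. SLC2A1, the main glucose transporter of the uterine epithelium, read 10.57, 10.26 and 10.48 in cyclic and 11.69, 11.76 and 11.21 in pregnant heifers, a rise of 1.12 ± 0.17 (adjusted p = 0.00016), and was the 1 gene past the threshold of 31 in glucose transport and glycolysis. The sodium-coupled glucose transporter SLC5A1 differed by 0.45 and did not pass. SLC12A2, which loads epithelial cells with chloride for fluid secretion, read 7.60, 7.52 and 7.62 against 8.36, 9.11 and 8.80 and rose by 1.18 ± 0.26. Of 45 genes of ion and other solute transport, 2 rose and 2 fell (4.44% each, against 4.06% and 2.28% of all genes). The rises were SLC12A2 and the mitochondrial carrier SLC25A33 (0.50), the falls KCNMA1 and the bicarbonate transporter SLC4A7 (-0.43). Without cyclic heifer 1, 4 of the 45 rose. Without cyclic heifer 2 or 3 or pregnant heifer 1, 1 rose, and without pregnant heifer 1 none fell.

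Of 21 amino acid transporters 2 rose (9.52%, against 4.06% of all genes). They were SLC1A5 (0.60 ± 0.15), which takes up glutamine, and SLC3A2 (0.32 ± 0.08), the partner chain of several exchangers. None rose without cyclic heifer 2 or 3 or pregnant heifer 1. In lipid uptake and fatty acid metabolism 3 of 44 rose (6.82%): FABP3, the lysosomal lipase LIPA (0.70) and the acyl-CoA synthetase ACSL5 (0.47). Without cyclic heifer 3 or pregnant heifer 1, 1 of these 44 rose. Lipoprotein lipase, LPL, differed by -0.34 and did not pass. In cholesterol synthesis PMVK (0.71 ± 0.19) was the 1 of 21 that rose, with no call without cyclic heifer 1, 2 or 3 or pregnant heifer 1 or 3 (0.59 to 0.91).

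Of 48 genes of integrins, adhesion and junctions 4 rose (8.33%, against 4.06% of all genes) and none fell, with a median of 0.05. CLDN4, a tight junction protein, read 10.13, 9.47 and 9.87 in cyclic and 11.47, 10.88 and 11.09 in pregnant heifers (1.32 ± 0.20, adjusted p = 0.000147). CDH1, the adherens junction protein E-cadherin, rose by 0.64 ± 0.09 (10.09, 9.93 and 10.18 against 10.84, 10.63 and 10.65). Pregnant heifers were above cyclic ones on every array for both, and both calls held with any 1 day 15 heifer left out. CLDN3 (0.55) and the integrin ITGB6 (0.68) were the other 2. Those 2 calls ended without cyclic heifer 1 or 3 or pregnant heifer 1 or 2, where 2 of 48 rose, and without cyclic heifer 2.

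CLDN4, CDH1 and CLDN3 are also the 3 rises among 14 measured epithelium markers (21.4%, against 4.06% of all genes), of which none fell. The mean level of those markers was 8.55 to 8.65 in cyclic and 8.72 to 8.76 in pregnant heifers, but their median difference was 0.02 and EPCAM and KRT18 differed by -0.03 and -0.35. The part of epithelial content in these rises and in those of SLC2A1 and SLC12A2 was not tested. In extracellular matrix 1 of 64 rose, COL18A1 (1.16 ± 0.25), whose call ended without pregnant heifer 1 (0.84 to 1.39).

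The proteasome and ubiquitin list stood out in its count of rises. Of 40 measured genes 14 rose (35%, against 4.06% of all genes) and none fell (against 2.28%). Of the 40, 36 had a positive difference, with a median of 0.20. PSME2 and PSME1, the activator subunits that open the proteasome for antigen processing and answer to interferon, rose by 0.79 ± 0.07 and 0.60 ± 0.07 (adjusted p = 1.69e-07 and 6.75e-06). PSMD14, the subunit that cuts ubiquitin from substrates, read 9.15, 9.19 and 9.22 in cyclic and 9.73, 9.62 and 9.68 in pregnant heifers, a rise of 0.49 ± 0.08. The core subunit PSMB3 rose by 0.57 ± 0.16, with no call without cyclic heifer 2 or 3 or pregnant heifer 1 or 3 (0.43 to 0.67).

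In the biopsies the median of the proteasome and ubiquitin list was 0.00 and none of its genes passed. On day 18, 18 of the 40 rose and none fell, against 12.6% and 10.4% of all genes. With 1 day 15 heifer left out 9 to 14 rose, the fewest without pregnant heifer 3, and 4 rose in the fit on the 6 day 15 arrays alone. Both other scalings tried, quantile normalisation and median centring, left 14 rises and 36 positive differences.

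Of 65 genes of oxidative phosphorylation 5 rose (7.69%, against 4.06% of all genes) and none fell. Of the 65, 56 had a positive difference and the median was 0.15. NDUFS4 of complex I rose by 0.42 ± 0.09 (10.21, 10.11 and 10.23 against 10.52, 10.65 and 10.64), and UQCRFS1 and UQCRC1 of complex III by 0.48 and 0.46. Under median centring 8 rose and under quantile normalisation 3. With 1 day 15 heifer left out 1 to 3 rose, 1 without cyclic heifer 2 or pregnant heifer 3, and the calls of UQCRFS1 and UQCRC1 ended without cyclic heifer 2, pregnant heifer 1 or pregnant heifer 3 (0.41 to 0.53 and 0.39 to 0.51). On day 18, 36 of the 65 rose and none fell, against 12.6% and 10.4% of all genes.

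Among 45 chaperones and folding factors 6 rose and 1 fell (13.3% and 2.22%, against 4.06% and 2.28% of all genes). CCT6A of the chaperonin ring rose by 0.51, the endoplasmic reticulum protein MANF by 0.49 and the co-chaperone DNAJB11 by 0.30, and SSR1 of the translocation complex fell by 0.33. Counts of rises were 3, 1, 2 and 1 without cyclic heifer 1, cyclic heifer 2, pregnant heifer 1 and pregnant heifer 3, and the SSR1 call ended without any 1 of the 6 heifers (-0.34 to -0.33).

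In the list of serine synthesis and amino acid stress response 4 of 36 rose and 1 fell (11.1% and 2.78%, against 4.06% and 2.28% of all genes). WARS1, the tryptophanyl-tRNA synthetase and a known interferon target, rose by 1.19 ± 0.16, and the stress transcription factor ATF3 by 1.07 ± 0.26. The glycyl-tRNA synthetase GARS1 rose by 0.45 ± 0.11, and ALDH18A1, which starts proline synthesis, fell by 0.51. Without cyclic heifer 2 or pregnant heifer 1, 1 of the 36 rose and none fell. TXN, the redox protein thioredoxin, read 10.94, 10.86 and 10.94 against 11.70, 11.54 and 11.69 and rose by 0.73 ± 0.12, the 1 call of 36 in tryptophan, polyamine and redox metabolism.

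**Figure D4:**
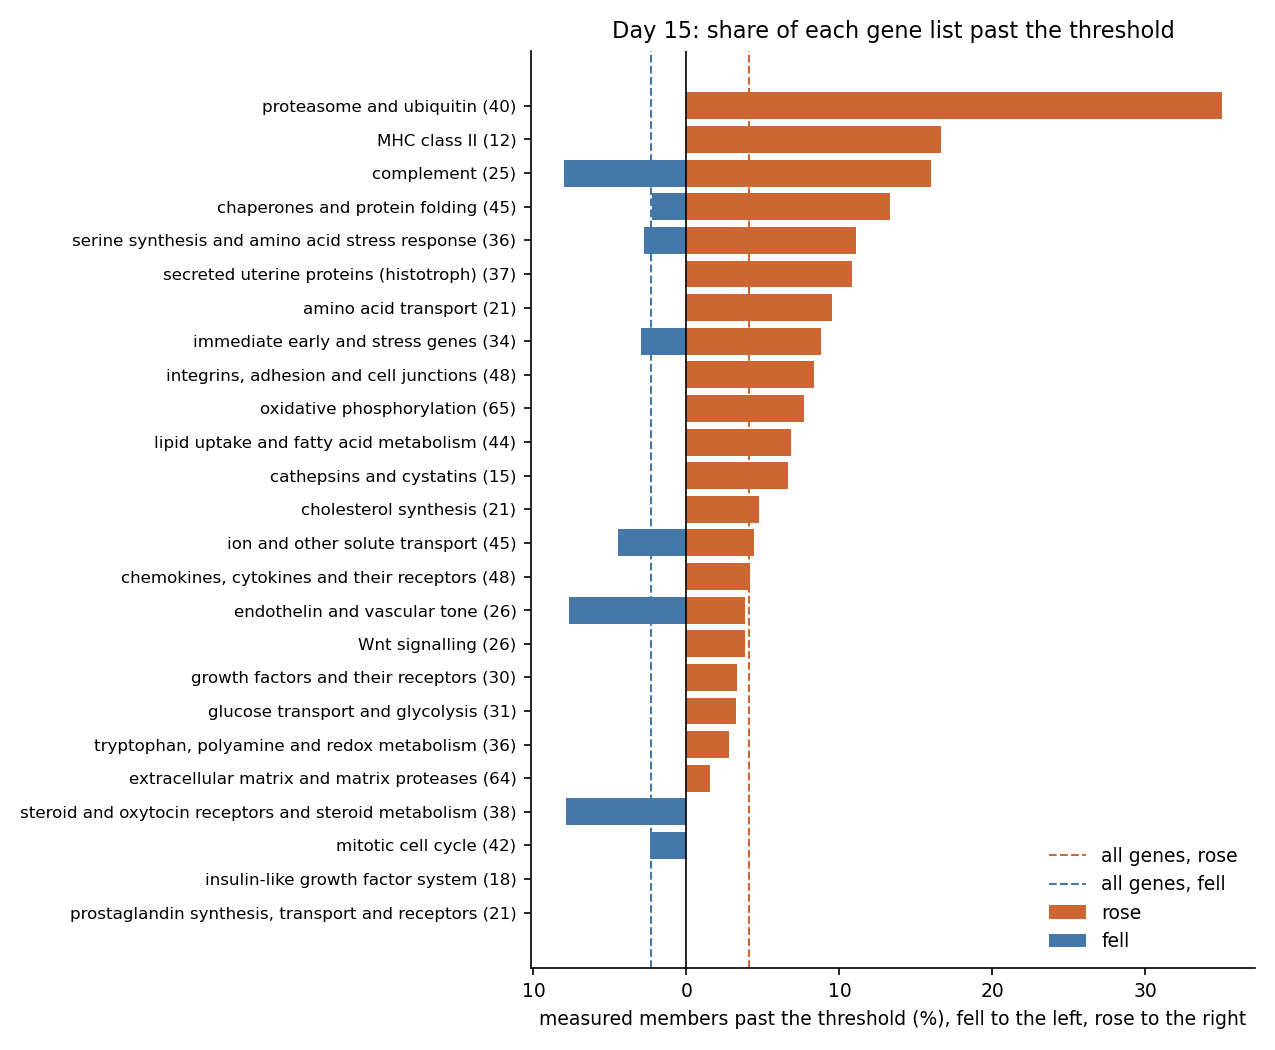
Share of the measured members of each of the 25 functional lists other than the interferon list (number measured in brackets) that rose (orange, to the right) or fell (blue, to the left) on day 15, in percent; dashed lines mark the shares over all 9155 genes, 4.06% and 2.28%. Proteasome and ubiquitin genes have the longest bar at 35%, and prostaglandin and insulin-like growth factor genes have none.

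Few hormone and luteolysis genes passed on day 15. Of 38 genes of steroid and oxytocin receptors and steroid metabolism none rose and 3 fell (7.89%, against 2.28% of all genes). The falls were IHH, a progesterone-driven hedgehog ligand (-0.76, groups overlapping), HSD17B11 (-0.45) and the receptor coactivator NCOA1 (-0.31). Without cyclic heifer 3 none fell, and without cyclic heifer 2, or any 1 of the pregnant heifers, the count was 1. OXTR, the oxytocin receptor, was low in all arrays at 3.74, 4.61 and 4.53 against 3.68, 3.85 and 3.88 and did not pass (-0.49 ± 0.24, adjusted p = 0.279). The receptors for oestrogen and progesterone, ESR1 and PGR, differed by 0.13 and 0.11, neither past the threshold.

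No gene of prostaglandin synthesis, transport and reception passed in limma, with 4 of 21 at an unadjusted p below 0.05. PTGS2, the inducible cyclooxygenase, read 9.06, 9.41 and 9.18 in cyclic and 9.79, 9.58 and 10.89 in pregnant heifers. The groups did not overlap, but pregnant heifer 3 stood above the rest, and the difference of 0.87 ± 0.40 did not pass (adjusted p = 0.241). None of 18 genes of the insulin-like growth factor system passed in limma, with 1 at an unadjusted p below 0.05. In Wnt signalling DKK1 was the 1 gene of 26, and without cyclic heifer 2 none rose. In the mitotic cell cycle TYMS, which makes thymidylate, fell by 0.68 ± 0.15 and was the 1 gene of 42; without pregnant heifer 3 none fell.

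Of 26 genes of endothelin and vascular tone 1 rose and 2 fell (3.85% and 7.69%, against 4.06% and 2.28% of all genes). PTHLH, a peptide that relaxes vessels and smooth muscle, read 5.76, 6.19 and 5.56 against 7.03, 7.20 and 6.85 and rose by 1.19 ± 0.32 (adjusted p = 0.0315), a call that only the fit without cyclic heifer 2 kept (1.05 to 1.37). APLNR, the apelin receptor of vessels, fell by 0.69 ± 0.14 with EDN3; its other probe set did not pass. Among 13 endothelial markers 2 fell, TIE1 and PECAM1 (-0.69 each, ± 0.17 and ± 0.18), 11 had a negative difference and the median was -0.37. Their mean level was 7.53 to 7.84 in cyclic and 7.26 to 7.56 in pregnant heifers. In the biopsies TIE1 and PECAM1 differed by -0.60 and -0.68, while the median of the list was -0.09 and none of it passed. With 1 day 15 heifer left out 0 or 1 of the 13 fell, none without cyclic heifer 1, cyclic heifer 2 or pregnant heifer 1, and the other probe set of PECAM1 did not pass. The part of endothelial content in the falls of EDN3 and APLNR was not tested.

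Immune genes outside the interferon list changed in a few members. In complement, C1R and C1S, the proteases that start the classical pathway, rose by 1.05 ± 0.12 and 0.88 ± 0.12 (adjusted p = 4.57e-06 and 6.81e-05), and their inhibitor SERPING1 by 0.48 ± 0.11. C1R read 10.35, 9.95 and 9.70 in cyclic and 11.19, 11.09 and 10.86 in pregnant heifers, with no overlap. With C4A these made 4 rises of 25, beside 2 falls, MASP2 (-0.40) and CD46 (-0.23). Those are 16% and 8% of the list, against 4.06% and 2.28% of all genes. None fell without cyclic heifer 2 or 3 or pregnant heifer 1, and SERPING1 lost its call without cyclic heifer 3 or pregnant heifer 1 (0.42 to 0.53). After IFNA, C1R, C1S and SERPING1 also passed in the biopsies (1.25, 1.31 and 1.20), and 7 of the 25 complement genes rose there.

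Of 48 chemokines, cytokines and receptors 2 rose (4.17%, against 4.06% of all genes), CCL8 and TNFSF13B, a survival factor for B cells (0.98 ± 0.20). Both also passed in the biopsies (2.03 each). In MHC class II 2 of 12 rose (16.7%), BOLA-DMB (0.55) and CTSS, and none did without cyclic heifer 2 or 3 or pregnant heifer 1. BOLA-DMB and CTSS, too, passed in the biopsies (1.25 and 0.66). Among the immediate early and stress genes 3 of 34 rose (8.82%), ATF3, GADD45B (0.63) and FOSL1 (0.55). CISH fell (-0.28), 2.94% of that list against 2.28% of all genes. Without cyclic heifer 2 or pregnant heifer 1, 1 rose and none fell. In growth factors and receptors PDGFRA (0.63 ± 0.16) was the 1 rise of 30 (3.33%). It had no call without cyclic heifer 2 or 3 or pregnant heifer 1 (0.43 to 0.77) and none for its 2 other probe sets. PDGFRA is also the 1 rise among 11 stroma markers, of which none fell.

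Few markers of immune cells passed. Of 12 macrophage and dendritic cell markers 1 rose (8.33%, against 4.06% of all genes). This was AIF1 (0.49 ± 0.12, with no call without cyclic heifer 3 or pregnant heifer 1). Of the 12, 11 had a positive difference and 4 an unadjusted p below 0.05 in limma. Their median was 0.30, against -0.01 over all genes, and their mean level was 6.68 to 7.13 in cyclic and 7.13 to 7.20 in pregnant heifers. On day 18, 9 of the 12 rose, against 12.6% of all genes, and the median of the 12 in the biopsies was 1.14. The part of macrophage content in the rises of CCL8, TIMD4 and the complement genes was not tested. Of 9 neutrophil markers 1 rose (11.1%, against 4.06% of all genes). It was S100A12, a calgranulin, which read 7.27, 6.21 and 6.62 against 8.20, 7.86 and 7.72 (1.23 ± 0.33). Only the fit without cyclic heifer 1 kept that call (0.98 to 1.51), and the median of the list was 0.01. None of the markers of T and NK cells (19 genes), mast cells (4), B or plasma cells (6), erythrocytes and platelets (7), smooth muscle (9) or ciliated epithelium (4) passed in limma, with 1, 1, 0, 0, 0 and 0 of them at an unadjusted p below 0.05.

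Remaining conceptus tissue was looked for with 12 trophoblast markers, none of which passed in limma, with 2 at an unadjusted p below 0.05. Of the 12, 10 had a positive difference, and the median was 0.12, against -0.01 over all genes. The mean level of the 12 was 4.45 to 4.57 in cyclic and 4.61 to 4.71 in pregnant heifers. That list holds PTGS2, which the endometrium also expresses. Without it the level was 4.00 to 4.15 and 4.14 to 4.18, and the differences of single markers ran from -0.21 to 0.27. The probe set for the interferon tau gene IFNT2 read 4.55, 4.59 and 5.03 in cyclic and 4.89, 5.01 and 4.74 in pregnant heifers, which overlap (0.16). TKDP1, a trophoblast protease inhibitor, differed by -0.00.

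The day 15 response was nearly absent on day 12 and mostly present on day 18. On day 12 no gene was higher and 1 was lower (0.0109%), and none of the 581 genes passed in limma then (33 of the rises and 17 of the falls at an unadjusted p below 0.05). A test of the difference between the days' effects passed for 477 probe sets (1.99%), 328 with a larger and 149 with a smaller difference on day 15, and for 170 of the 372 rises and 46 of the 209 falls (1.94% and 0.568% of all genes passed higher and lower). Without cyclic heifer 2 or pregnant heifer 1 it passed for 282 and 289 probe sets. The counts among rises and falls describe genes chosen on the same day 15 arrays that enter the test. PLET1 differed by 0.01 ± 0.31 on day 12, and its change to day 15 was 3.42 ± 0.51 (adjusted p = 0.000264). The change was 2.55 ± 0.27 for CCL8 and -1.21 ± 0.24 for FAP, both calls kept with any 1 day 15 heifer left out.

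On day 18, 318 of the rises passed again (85.5% of them, and 27.7% of the 1150 genes higher on day 18, 12.6% of all genes) and 139 of the falls (66.5%, and 14.6% of the 955 lower genes, 10.4% of all). None passed the opposite way. The fits of both days share the estimate of spread but no animal. The difference between the effects of days 18 and 15 passed for 50 probe sets (0.208%), among them 3 of the 372 rises, each larger on day 18 (0.218% of all genes), and none of the falls. Without cyclic heifer 1 or pregnant heifer 3, 22 and 21 probe sets passed. PLET1 reached 6.94 ± 0.35 on day 18, a further 3.50 ± 0.53 (adjusted p = 0.00269). ALOX5AP, which helps to make leukotrienes, went from 0.63 to 1.78, and ANXA1, an anti-inflammatory annexin, from 0.68 to 1.55. The ALOX5AP call ended without cyclic heifer 1, and that of ANXA1 without cyclic heifer 1 or 2 or pregnant heifer 2 or 3 (1.08 and 0.80 at the lowest).

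TRAK2, KCNE4 and SOAT1 had a day 18 difference below that of day 15, though none of these 3 passed that test. TRAK2 differed by 0.03 ± 0.44 on day 18 after 2.42 ± 0.51 (change -2.39 ± 0.68, adjusted p = 0.182), KCNE4 by 0.27 ± 0.23 after 1.46 ± 0.27 (-1.19 ± 0.36, 0.221) and SOAT1 by 0.56 ± 0.23 after 1.45 ± 0.27 (-0.89 ± 0.36, 0.41). SERPINA14 and SPP1, which had not passed on day 15, did on day 18 (3.32 and 1.93, adjusted p = 2.75e-06 and 0.00137). OXTR was on day 18 lower in pregnant than in cyclic heifers by 0.66 (adjusted p = 0.0285). For these 3 genes the difference between the days did not pass (adjusted p = 0.235, 0.652 and 0.92). For the oestrogen receptor ESR1 it did. ESR1 was low on day 15, at 4.43, 4.26 and 4.33 in cyclic and 4.31, 4.58 and 4.51 in pregnant heifers (0.13). On day 18 it was lower in pregnant than in cyclic heifers (-0.71 ± 0.11, adjusted p = 8.79e-05). The pregnancy effect thus changed by -0.83 ± 0.17 (adjusted p = 0.0371). The call on that change was kept only without pregnant heifer 1 (-0.91 to -0.78 over the 6 fits) and ended with the day 15 and 18 arrays alone.

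**Figure D5:**
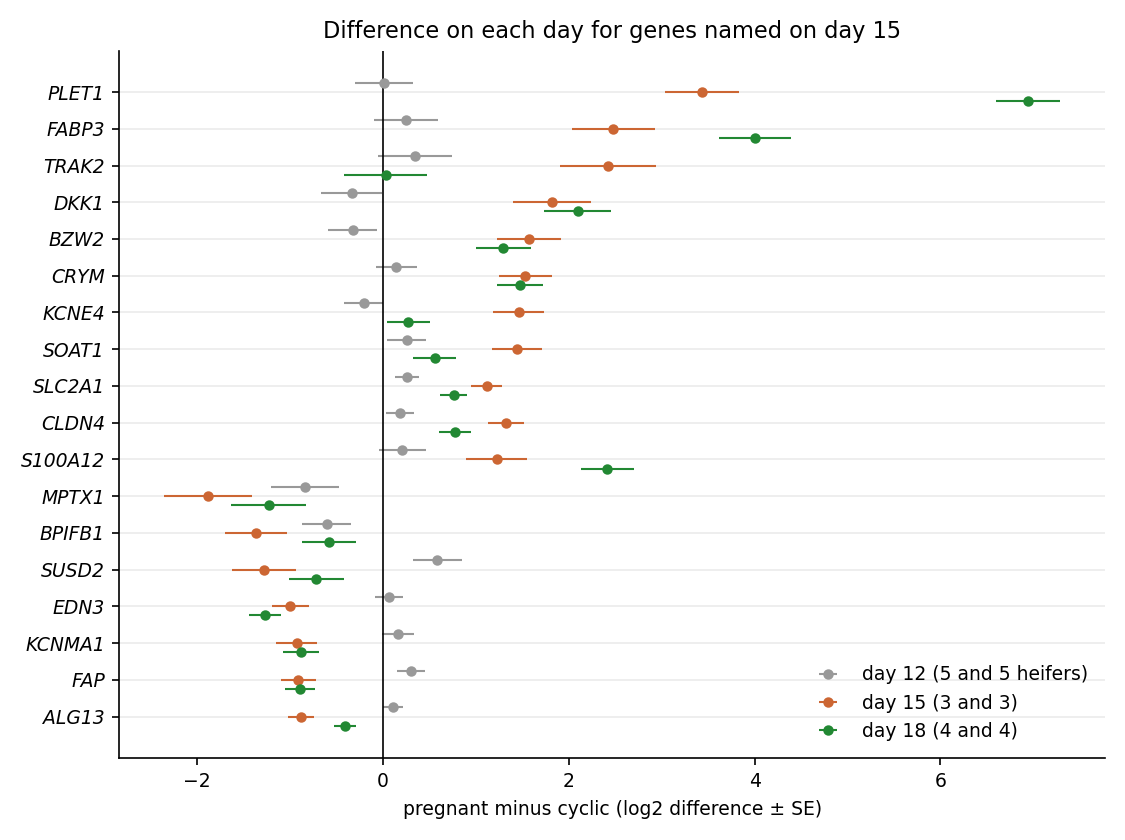
Pregnant minus cyclic log2 differences (points) with their standard errors (bars) on day 12 (grey, 5 and 5 heifers), day 15 (orange, 3 and 3) and day 18 (green, 4 and 4) for 18 genes named on day 15. PLET1 goes from 0.01 to 3.44 and 6.94, while TRAK2 is at 0.34, 2.42 and 0.03.

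The difference between the day 15 effect and the IFNA effect passed for 89 probe sets (0.371%), 44 with a larger and 45 with a smaller value on day 15; with median centring these were 62 and 33, and with quantile normalisation 44 and 28. Of the 372 rises 22 were larger on day 15 than after IFNA and 1 was smaller, SERPING1 (0.48 against 1.20). Of the 209 falls 6 lay below the IFNA difference. Over all genes 0.284% were larger and 0.218% smaller. The rises and falls were chosen on the same day 15 arrays that enter this contrast, so the direction of their counts is not independent of that choice. SLC25A5, the mitochondrial ADP/ATP carrier, read 9.84, 9.83 and 9.93 in cyclic and 10.85, 10.89 and 11.01 in pregnant heifers (1.05 ± 0.19) and differed by -0.67 ± 0.22 in the biopsies, a contrast of 1.72 ± 0.28 (adjusted p = 0.00648). CDH1, PSMD14 and the carrier SLC25A33 were also among the 22. Without cyclic heifer 1, 2 or 3 or pregnant heifer 1 or 3, 53, 26, 40, 33 and 34 probe sets passed.

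For PLET1, FABP3, BZW2, SLC2A1 and CLDN4 the contrast with IFNA was 2.90 ± 0.86, 3.12 ± 0.76, 1.96 ± 0.50, 1.21 ± 0.34 and 1.65 ± 0.47, and none passed (adjusted p = 0.128, 0.0629, 0.078, 0.107 and 0.11). A larger rise in pregnancy than after IFNA is thus not shown for these genes.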

How the data were processed

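The authors deposited log2 expression values made by RMA with affy, according to the submitters' processing notes; versions are not given in the sources used here. The labels describe one-cycle labelling of total RNA and biological replicates. Sorted values matched within the day 15 arrays (largest SD of a sorted value 0.0566, against 0.333 over all 33), so values were compared within a day. Of the probe sets, 112 controls were left out; 13292 of 24016 have 1 gene symbol, 86 several and 10638 none, and 13263 were updated by gene identifier in RefSeq. For 2913 of 9155 genes with several probe sets, the 1 with the highest mean over the 6 day 15 arrays was used.

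limma 3.58.1 in R 4.3.3 (lmFit, eBayes, two-sided) was fitted to the 24 pregnancy arrays with 1 mean per group, to all 33 for the contrast with IFNA, and to the 9 biopsy arrays for IFNA minus placebo. Precision is limited by the number of arrays, with a median standard error of 0.117 on day 15. The code was tested on simulated data. Members and lists were chosen with earlier results of these data known. Named genes are the 16 largest rises outside the interferon list and 16 largest falls, without overlap and without LOC symbols, up to 4 passing members per list, a fixed set, and up to 4 genes each way per difference between effects. Alternatives were the replicate number as a block, other scalings, a mean of 5 or more, an intensity trend, array weights, fewer arrays, PBS for placebo, the mean over probe sets, and each day 15 animal left out.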

Additional observations from a re-analysis of the deposited data

Results flagged for a closer look

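The following differences between effects passed a direct test in limma. From day 12 to day 15 the pregnancy effect changed for 477 probe sets; among genes that also passed on day 15 and are not on the interferon list, the largest increases were LOC100298356 (4.28), PLET1 (3.42), GBP1 (3.03) and CCL8 (2.55), and the largest decreases SUSD2 (-1.87), FAP (-1.21), KCNMA1 (-1.09) and EDN3 (-1.07). Of these, LOC100298356, PLET1, CCL8 and FAP passed with any 1 day 15 heifer left out. KCNMA1 passed in none of those 6 fits, GBP1 did not without cyclic heifer 2 or pregnant heifer 1, EDN3 did not without cyclic heifer 1 or 3 or pregnant heifer 2 or 3, and SUSD2 passed only without cyclic heifer 1 or pregnant heifer 1. Of the fixed set, MX2 (4.90), ISG15 (4.71), RSAD2 (4.32), FABP3 (2.23), DKK1 (2.15) and SLC2A1 (0.86) also passed. The first 3 did so with any 1 day 15 heifer left out, while FABP3 did only without cyclic heifer 1, DKK1 only without cyclic heifer 1 or 3, and SLC2A1 only without cyclic heifer 1 or pregnant heifer 3.

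From day 15 to day 18 it changed for 50 probe sets, among them PLET1 (3.50), ALOX5AP (1.15) and ANXA1 (0.86). ESR1 changed the other way (-0.83) and kept its call only without pregnant heifer 1. With only the day 15 and day 18 arrays PLET1 had the same value and an adjusted p of 0.0814.

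Between day 15 pregnancy and IFNA, 89 probe sets differed, with S100A12 (2.53), SLC25A5 (1.72), NUP93 (1.52) and TNFRSF12A (1.42) higher and HOXB3 (-1.19), ALG13 (-1.17), PTPN6 (-0.72) and SERPING1 (-0.72) lower on day 15. NUP93, of the nuclear pore, passed in none of the fits with 1 day 15 heifer left out. SLC25A5 and ALG13 passed in all 6. TNFRSF12A, the receptor for the cytokine TWEAK, passed only without pregnant heifer 2. S100A12 failed without cyclic heifer 2 or pregnant heifer 1, HOXB3 without those or cyclic heifer 3, PTPN6 without cyclic heifer 1 or 3 or pregnant heifer 1 or 3, and SERPING1 without cyclic heifer 1 or 2 or pregnant heifer 2 or 3. CTSL, of the fixed set, was also lower (-2.13, adjusted p = 0.0416) and passed in none of the 6 fits with 1 heifer left out or with PBS in place of placebo. With PBS, S100A12 kept its call and the other 7 genes named before CTSL lost theirs.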

How the results depend on the processing

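With only the 6 day 15 arrays, 465 probe sets passed (373 higher, 92 lower; 195 and 33 genes). Deviations of same-numbered heifers correlated at 0.11, 0.02 and 0.15, and those of differently numbered heifers at -0.17 to 0.07. With 3 arrays per group these values cannot settle whether the replicate numbers pair the samples. With the replicate number as a block 1017 probe sets passed (138 genes lower), with block and 6 arrays 403 (338 and 65; 176 and 22 genes), and for the contrast with IFNA 20. Without 1 day 15 heifer, 601 to 1122 probe sets passed (399 to 599 higher, 188 to 523 lower; 224 to 340 and 63 to 185 genes), and 282 to 476, 21 to 42 and 26 to 68 for the contrasts with day 12, day 18 and IFNA. The day 18 contrast gave 27 with a mean of 5 or more and 23 with day 15 and 18 arrays only. The IFNA contrast gave 1026 with array weights and 16 with PBS for placebo; the cause was not tested. Of 96 named genes past the threshold, 49 to 82 kept their call without 1 heifer, 74 with the block, 89 and 94 under the other scalings, and 46 with the 6 arrays. With block and 6 arrays 2 of the 40 proteasome and ubiquitin genes rose, and IGFBP1 passed (adjusted p = 0.0226); with the block alone SERPINA14 passed (0.0339), and ESR1 lost its day 18 against day 15 call (0.161). Small differences below the threshold changed sign without cyclic heifer 1 (PGR -0.063, CTSL -0.045) or pregnant heifer 2 (EDN2 -0.025); their highest values without 1 heifer were 0.26, 0.20 and 0.21. No dates were given, so batches could not be checked.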

Other observations

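Genes of the translation machinery were grouped by symbol after their values had been seen, so the counts below are descriptions. Of 67 mitochondrial ribosomal proteins 7 rose on day 15 and none fell, 50 had a positive difference and the median was 0.09. Over all genes 4.06% rose and 2.28% fell. MRPS31 read 7.60, 7.60 and 7.56 in cyclic and 8.03, 8.28 and 8.47 in pregnant heifers, a rise of 0.67 ± 0.15 (limma, adjusted p = 0.0114). Of 66 cytosolic ribosomal proteins none rose and 1 fell, RPL34 (-0.21), while 55 had a negative difference and the median was -0.05. On day 18, 19 of the mitochondrial set rose and 2 fell, and 1 of the cytosolic set rose and 27 fell, against 12.6% and 10.4% of all genes. With 1 day 15 heifer left out 2 to 6 mitochondrial genes rose. Under quantile normalisation the medians were 0.11 and -0.05, and under median centring 0.10 and -0.04.

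Of 16 cytosolic aminoacyl-tRNA synthetases, which load amino acids onto tRNA, 4 rose (WARS1, YARS1, GARS1 and SARS1) and 14 had a positive difference. Over all genes the share of rises was 4.06%. YARS1 read 8.73, 8.62 and 8.64 against 9.99, 9.22 and 9.61 (0.94 ± 0.18, adjusted p = 0.00236). With 1 day 15 heifer left out 2 to 4 rose. Among 37 translation initiation factors 5 rose and none fell, led by the cap-binding EIF4E (0.81) and the helicase EIF4A1 (0.57), and 2 to 4 rose with 1 heifer left out.

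Of 11 measured HOX genes, which set position along the reproductive tract, 2 fell, HOXB3 (-0.62) and HOXB4 (-0.60), against 2.28% of all genes, and 4 of the 11 had a positive difference. None to 2 fell with 1 day 15 heifer left out. On day 18, 3 of the 11 fell, against 10.4% of all genes.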
